A study of Ipomoea batatas with 9 samples.

Results

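Storage roots of the sweetpotato cultivar Xushu 18 were profiled by RNA sequencing after storage at 14 °C and without storage, and this comparison describes what changed in roots kept without chilling. It takes in 6 of the 9 libraries of the study, 3 libraries of roots stored at 14 °C and 85% relative humidity and 3 of roots that had been in neither store, chosen by their treatment label. The other 3 libraries came from roots stored at 4 °C at the same humidity. Each library pooled 7 roots. The stored roots were sampled at intervals, and the labels do not say how long the roots of these libraries had been in store, so temperature, humidity and time since harvest cannot be told apart. The protocol text in the labels names retinas as the tissue extracted, whereas the tissue label is root. The described contigs with the most counts in both groups included sporamin, the storage protein of the sweetpotato root. Ranked as single contigs, the ADP-glucose pyrophosphorylase subunit AGPS1 stood first among them at 14 °C and sporamin second. In roots not stored a sporamin contig stood first. Summed over all their contigs at 14 °C, AGPS1 had 28105 ± 4200 CPM and sporamin 29760 ± 4593 CPM (SD, n = 3, CPM defined below). The libraries overlapped in these sums, so AGPS1 as a whole did not stand above sporamin.

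The sweetpotato storage root is a starch-filled sink organ whose vacuoles hold sporamin, a protein related to Kunitz trypsin inhibitors. In such tissue sucrose arrives from the leaves, sucrose synthase cleaves it, ADP-glucose pyrophosphorylase makes the glucosyl donor for starch, and starch synthases and branching enzymes build the granule. After harvest that supply ends, and the root lives on its reserves. Harvested roots also respond to wounding and handling, and in plants wounding is known to act through mitogen-activated protein kinases, WRKY and ethylene response factor (ERF) proteins and jasmonate.

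Expression was measured over 110110 assembled transcript groups, called contigs here, of which 94802 passed the filter on low counts and were tested. Levels are given as CPM, that is counts scaled to 1000000 per library after adjustment for library composition, and fold changes are the 14 °C store over roots not stored on the log2 scale with their standard error. Adjusted p-values come from the quasi-likelihood test of edgeR with Benjamini-Hochberg adjustment over all tested contigs, and a contig is said to have risen or fallen where that value was below 0.05. Sweetpotato is polyploid, and several contigs can carry the same gene symbol and share reads, so counts of contigs are not counts of genes. Libraries held between 67643612.14 and 95421912.86 estimated counts. Log2 CPM values correlated at 0.971 to 0.984 within the 14 °C group and at 0.953 to 0.971 among roots not stored, against 0.804 to 0.869 between the groups. The 100 most abundant contigs took 19.9% to 21.1% of counts at 14 °C and 27.2% to 30.7% in roots not stored. The design text calls each pool of roots a biological replicate.

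Storage at 14 °C changed levels in both directions in nearly equal numbers. At the 0.05 threshold 14335 contigs (15.1%) were higher at 14 °C and 14915 (15.7%) were lower. With a change of at least 2-fold required as well, 8672 (9.15%) were higher and 9432 (9.95%) lower. Among abundant contigs the large changes went mostly down. A called change of at least 4-fold with 5 CPM or more in the higher group was seen upward in 303 contigs and downward in 1191, and one of at least 16-fold upward in 29 and downward in 297. The 14 °C libraries lay wholly above those of roots not stored in 21381 contigs (22.6%) and wholly below them in 20898 (22.0%). Scaling by library totals alone moved the median log2 fold change of all tested contigs up by 0.25, and the split of the calls was then 67.9% higher and 32.1% lower, in place of 49.0% and 51.0%.

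**Figure D1:**
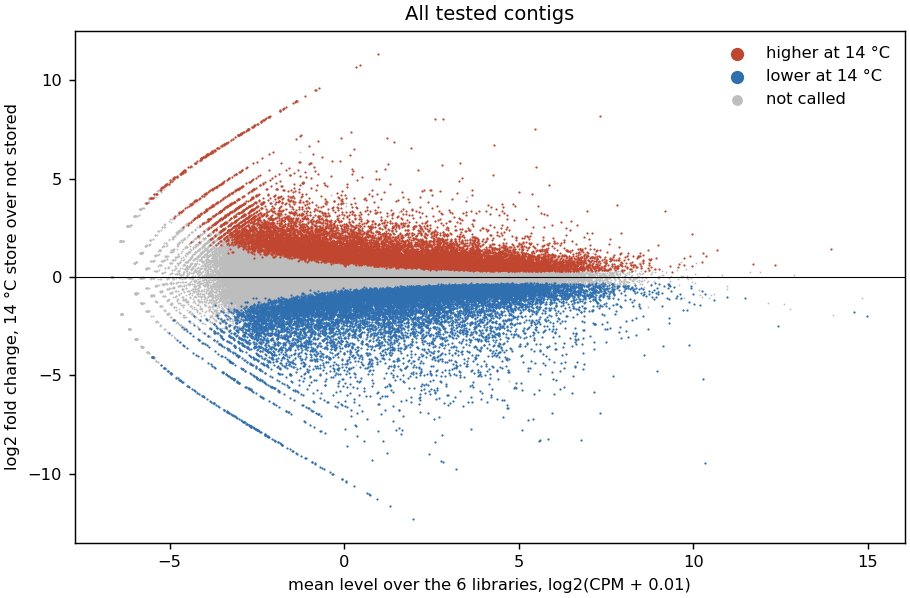
Log2 fold change (14 °C store over roots not stored) against mean level over the 6 libraries for each tested contig, with contigs called higher in red (14335), called lower in blue (14915) and not called in grey. Blue points reach further from 0 than red ones at intermediate and high levels, while the called numbers of both colours are alike.

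Of the gene lists with at least 20 tested contigs, starch synthesis had the largest share that rose. ADP-glucose pyrophosphorylase, the first committed enzyme of starch synthesis, branching enzyme and starch synthase together had 98 tested contigs. Of these 73 rose and 0 fell (74.5% higher, against 15.1% of all tested contigs and 19.3% of those with a pathway annotation). Their median log2 fold change was 1.13, against 0.02 over all tested contigs, and their summed level was 31725 ± 4457 CPM at 14 °C and 12612 ± 1920.1 CPM in roots not stored (SD, n = 3 each). In bulk tissue, fewer cells of a type and less RNA per cell cannot be told apart. The pyrophosphorylase alone rose in 47 of 61 contigs, branching enzyme in 14 of 19 and starch synthase in 12 of 18. The most abundant contig of the group, AGPS1 (comp75210_c1), had 27256, 20952 and 21560.2 CPM at 14 °C, against 8357, 6979 and 10140.5 CPM in roots not stored. All 14 °C libraries stood well above all libraries of roots not stored. The log2 fold change was 1.45 ± 0.27 (edgeR adjusted p = 0.00277), a 2.74-fold rise. A second AGPS1 contig, comp4315_c1, picked after its values were seen, had 1472, 1046 and 687 CPM at 14 °C and 86.2, 72.2 and 155 CPM in roots not stored, a 10.2-fold rise. All 9 contigs with the symbol SBE1, a branching enzyme, rose, and together they reached 1239.7, 1098 and 1079 CPM at 14 °C, against 729.6, 613 and 689.5 CPM in roots not stored. Granule-bound starch synthase, which makes amylose and is annotated as WAXY outside the list, rose less. Its main contig, comp18538_c4, picked after its values were seen, had 6296, 5459 and 6956 CPM at 14 °C and 4654, 3819 and 3701 CPM in roots not stored, a 1.54-fold rise (edgeR adjusted p = 0.00537).

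Sucrose synthase rose as well. Of its 35 tested contigs 23 rose and 1 fell, and their summed level was 4902 ± 597 CPM at 14 °C and 2185 ± 256 CPM in roots not stored. The leading contig, comp63836_c2, had 2799, 2072 and 2184 CPM at 14 °C and 826, 875 and 1013 CPM in roots not stored. The groups did not overlap, and the log2 fold change was 1.38 ± 0.15 (edgeR adjusted p = 4.12e-05). Sucrose-phosphate synthase, which makes sucrose, rose in 5 of 18 contigs, and invertase, annotated as beta-fructofuranosidase, rose in 1 and fell in 1 of 7. Hexokinase, which phosphorylates glucose, rose in 15 of 30 contigs and fell in none. Among sugar carriers all 7 contigs of the inositol transporter INT1 rose, with a summed level of 126 ± 24 CPM at 14 °C and 40.5 ± 5.87 CPM in roots not stored. The sucrose efflux carrier SWEET15 (comp69683_c1) fell, with 69.4, 100.1 and 87.1 CPM at 14 °C and 176, 152 and 159.7 CPM in roots not stored (edgeR adjusted p = 0.00116). Over all 74 tested sugar transporter contigs 24 rose and 13 fell.

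Enzymes of starch breakdown rose more often than they fell, but the pair of contigs with the most counts among them did not pass the test. Over 139 tested contigs 45 rose and 7 fell, with a median log2 fold change of 0.20, and 4 fell without the third 14 °C library. The summed level of the list went the other way, with 15077 ± 916 CPM at 14 °C and 18771 ± 1223 CPM in roots not stored. Every 14 °C library lay below every library of roots not stored in that sum. Alpha-glucan, water dikinase, which phosphorylates starch and opens granules to attack in leaves, rose in 12 of 16 contigs, with a summed 725 ± 149.7 CPM at 14 °C and 285 ± 44.5 CPM in roots not stored. The glucanotransferase that handles maltose and short glucans rose in 11 and fell in 1 of 25. Alpha-amylase rose in 8 and fell in 5 of 26. The main starch phosphorylase contig, comp38284_c1, had 8471, 7191 and 7741 CPM at 14 °C and 7849, 6625 and 7724 CPM in roots not stored, so the groups overlapped (log2 fold change 0.08 ± 0.24, edgeR adjusted p = 0.838). The major beta-amylase of the sweetpotato root, BMY1 (comp34415_c1), had 3595, 3198 and 3711 CPM at 14 °C and 9813, 8745 and 8215 CPM in roots not stored. Every 14 °C library stood below every library of roots not stored, yet its adjusted p was 0.113 with edgeR when all 9 libraries set the spread and 0.000103 when only the 6 did. Of all 17 BMY1 contigs 5 rose and 0 fell, while comp34415_c1 held nearly all of their sum of 3602 ± 274 CPM at 14 °C and 8990.3 ± 819 CPM in roots not stored. The beta-amylase BAM9 (comp10684_c1), with 706, 759.6 and 741 CPM at 14 °C and 615, 584 and 625 CPM in roots not stored, passed the test (edgeR adjusted p = 0.0473) but did so in only 4 of 15 alternative fits.

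**Figure D2:**
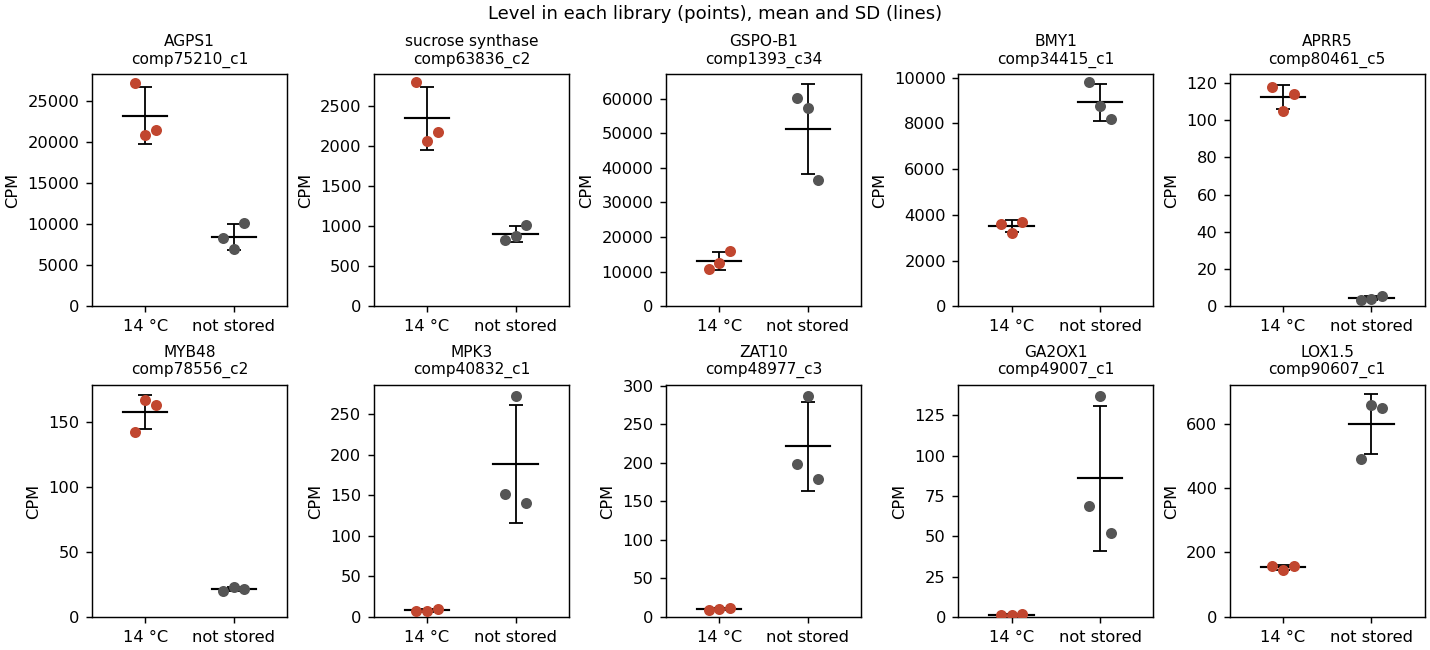
Level in CPM of 10 contigs in each library, with 14 °C libraries in red at the left of each panel and roots not stored in grey at the right; horizontal lines are means and bars are SD (n = 3). In every panel the groups are apart: AGPS1, sucrose synthase, APRR5 and MYB48 stand higher at 14 °C, and GSPO-B1, BMY1, MPK3, ZAT10, GA2OX1 and LOX1.5 stand lower. Most of these contigs were chosen by a rule that required the groups not to overlap.

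Part of the sporamin B contigs fell at 14 °C, and no sporamin A contig passed the test. The 5 contigs with the symbol GSPO-B1 summed to 19963, 22161 and 28230.2 CPM at 14 °C, against 102231, 97836 and 64929.7 CPM in roots not stored. In each of them the 14 °C libraries lay wholly below the others. Their largest member, comp1393_c34, had 10819.6, 12392 and 15995 CPM at 14 °C and 60096, 57364 and 36412 CPM in roots not stored (log2 fold change -1.97 ± 0.66, edgeR adjusted p = 0.0498). Of the sporamin B contigs 2 passed the test. With only the 6 libraries in the fit all 5 did, with an edgeR adjusted p of 0.000241 for comp1393_c34, and leaving out any single library left 1. The contig comp1393_c34 passed in 5 of 15 alternative fits, and its edgeR adjusted p was 0.0958 to 0.157 with a single library left out and 0.0709 with the length trend removed. The fit over 9 libraries takes its spread from the 4 °C store too, where comp1393_c34 had 116, 108 and 12 CPM. The 4 GSPO-A1 contigs summed to 6078, 6184 and 6664 CPM at 14 °C and 6833, 5366 and 4687 CPM in roots not stored, and none passed the test. With only the 6 libraries in the fit 1 GSPO-A1 contig rose. The largest, comp14775_c14, had a log2 fold change of 0.28 ± 0.70 (edgeR adjusted p = 0.795). Per length, in the authors' deposited length-scaled TPM values, comp1393_c34 stood at 15531 ± 2452 TPM and comp14775_c14 at 11513 ± 281 TPM at 14 °C, against 45558 ± 7450.5 and 7034 ± 714 TPM in roots not stored (SD, n = 3).

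Contigs without a symbol but with the same function terms as sporamin (vacuole, endopeptidase inhibitor and nutrient reservoir) were examined with it. This set, drawn up after values were seen and including the GSPO contigs, had 26 tested members and summed to 58730.1 ± 6457 CPM at 14 °C and 153279 ± 28118 CPM in roots not stored. Of these 8 fell and 1 rose, and with only the 6 libraries in the fit 19 fell and 2 rose. Without the first 14 °C library 4 fell. Its largest contig without a symbol, comp15092_c1, picked after its values were seen, had 18024, 18501 and 20518 CPM at 14 °C and 44147, 38860.4 and 36293 CPM in roots not stored (edgeR adjusted p = 0.175, or 0.000431 with only the 6 libraries). Serine-type endopeptidase inhibitors fell in 11 and rose in 4 of 19 contigs, and cysteine-type inhibitors fell in 12 and rose in 2 of 27, the main one (comp81210_c2) having 873, 849 and 1095 CPM at 14 °C and 2510.2, 2168 and 1716 CPM in roots not stored. A pair of serine-type inhibitor contigs moved in opposite directions by large factors, and both were picked after their values were seen. The contig comp65820_c1, which also carries the term response to wounding, had 59.5, 52 and 88.9 CPM at 14 °C and 3349, 2239 and 1623 CPM in roots not stored, a 36-fold fall (edgeR adjusted p = 1.9e-06). The contig comp14081_c1 had 266, 415 and 273 CPM at 14 °C and 0.588, 1.94 and 0.761 CPM in roots not stored, a 289-fold rise (edgeR adjusted p = 1.07e-05).

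Genes of the circadian clock and of light perception rose more often than they fell. The clock works through morning factors (LHY and CCA1), pseudo-response regulators and GIGANTEA, which repress or stabilise one another over the day. Of 237 tested contigs 85 rose and 31 fell (35.9% and 13.1%), with a median log2 fold change of 0.27, and 19 fell without the second 14 °C library. The steepest rise among all described contigs of at least 5 CPM was in pseudo-response regulator 5. Its main contig (APRR5, comp80461_c5) had 118, 105 and 114 CPM at 14 °C and 3.64, 3.92 and 5.78 CPM in roots not stored. The groups lay far apart with little spread within each, and the log2 fold change was 4.66 ± 0.18 (edgeR adjusted p = 1.35e-07). A second APRR5 contig, comp107962_c3, rose 29.1-fold. By description 8 of 9 contigs of this regulator rose, 3 of 13 of regulator 7, 3 of 8 of regulator 9 and 1 of 13 of regulator 1. GIGANTEA rose in 8 and fell in 2 of 13 contigs, LHY rose in 8 and fell in 1 of 19, and CCA1 rose in 6 of 7. Counted by symbol instead, CCA1 rose in 5 and fell in 2 of 9 contigs, and LHY rose in 5 and fell in 1 of 9. The labels do not give the time of day at which roots were sampled. The blue light receptor CRY2 (comp31366_c3) had 292, 278 and 279.5 CPM at 14 °C and 145, 156 and 169.6 CPM in roots not stored (edgeR adjusted p = 8.27e-05). Phytochromes, the red light receptors, rose in 9 of 11 contigs, among them all 7 described as phytochrome B. These contigs are long, and with each library's trend over contig length removed 4 of the 11 rose. For PHYA (comp31065_c1), with 139.5, 129 and 118 CPM at 14 °C and 92.1, 83 and 106 CPM in roots not stored, that correction turned the log2 fold change of 0.46 ± 0.12 into -0.10.

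Among other groups, heat stress factors, which drive chaperone genes, rose in 23 and fell in 11 of 64 contigs, with all 8 HSF30 contigs higher at a summed 96.8 ± 5.06 CPM at 14 °C and 54.2 ± 1.22 CPM in roots not stored. Of 118 heat shock protein contigs 27 rose and 20 fell, or 13 and 11 fell without the first or second 14 °C library. The shares, 22.9% and 16.9%, were near the 19.3% and 20.5% of all tested contigs with a pathway annotation. Among the heat shock contigs the chaperone MED37C (comp11354_c5), described as a heat shock protein of the HSP70 type, had 1595, 1403 and 1625 CPM at 14 °C and 769, 877 and 1039 CPM in roots not stored (edgeR adjusted p = 0.000641). Of all 7 MED37C contigs 3 rose and 3 fell. Of 17 contigs of the minichromosome maintenance proteins, the helicase loaded at replication origins, 14 rose and 1 fell. The contig mcm5-a (comp16717_c1) had 53.5, 51.7 and 54.1 CPM at 14 °C and 25.3, 21.2 and 25.1 CPM in roots not stored (edgeR adjusted p = 2.29e-05), while the wider list for dividing cells (histones, cyclins and cyclin-dependent kinases) rose in 29 and fell in 43 of 208, with 27 falls without the first 14 °C library and 28 without the first library of roots not stored. Histone H2A, H2B and H4 contigs fell in 14, 4 and 10 cases and rose in 0, 0 and 1. The functional class of chromatin structure held 31, 25 and 19 tested contigs of these histones. Among all tested contigs 15.7% fell, and H2B was near that share. A histone H1/5 contig, comp12407_c7, was among the largest rises, with 13.5, 6.26 and 12 CPM at 14 °C and 0.529, 0.576 and 0.361 CPM in roots not stored. The SEC23, SEC24 and SEC31 proteins, which coat vesicles leaving the endoplasmic reticulum, rose in 20 of 31 contigs. With the length trend removed 17 of them rose.

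Single contigs with firm rises came from varied functions. The transcription factor MYB48 (comp78556_c2) had 143, 167 and 164 CPM at 14 °C and 19.7, 23.2 and 21.8 CPM in roots not stored, a 7.33-fold rise with no overlap (edgeR adjusted p = 2.23e-06). The MYB list as a whole rose in 39 and fell in 35 of 182 contigs. Its shares, 21.4% and 19.2%, were near the 19.3% and 20.5% of all tested contigs with a pathway annotation. BXL1, which in Arabidopsis is a bifunctional xylosidase and arabinosidase of the cell wall, had 24.1, 25.7 and 13.3 CPM in contig comp23395_c3 at 14 °C and 0.894, 1.74 and 1.76 CPM in roots not stored (14.4-fold, edgeR adjusted p = 3.45e-05). Its other contig, comp88771_c2, rose 10.6-fold. THI1, which makes the thiazole ring of thiamine, rose in all 6 contigs and summed to 718, 553 and 722 CPM at 14 °C, against 398, 271 and 274 CPM in roots not stored. Catalase, which breaks down hydrogen peroxide, rose in 8 of 11 contigs. Its main contig, comp104765_c1, had 4023, 4062 and 4109 CPM at 14 °C and 2669, 2455 and 2720.2 CPM in roots not stored (edgeR adjusted p = 0.00332). The list for reactive oxygen scavenging rose in 26 and fell in 19 of 97, with 16 rises without the second library of roots not stored and 11 falls without the second 14 °C library. Over all libraries that was 26.8% and 19.6%, against the 19.3% and 20.5% given above. Ascorbate peroxidase, which removes the same substrate, fell in 9 and rose in 2 of 14 contigs. The auxin response factor ARF2 rose in 8 of 12 contigs, and ARF25 (comp10048_c1) had 272, 248 and 228 CPM at 14 °C and 128, 135 and 165 CPM in roots not stored (edgeR adjusted p = 0.00051). The remaining large rises were contigs of a Lon protease (comp98895_c3, 14.9-fold), a subtilisin (ARA12, comp11208_c3, 12-fold) and a uridine kinase (UKL1, comp102099_c1, 10.4-fold). Of all 59 ARA12 contigs 7 rose and 20 fell.

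Of the 8 largest falls among described contigs of at least 5 CPM, 6 were in ERF and DREB transcription factors, which bind promoters of ethylene, wounding and cold response genes. Of 154 tested contigs described as EREBP-like factors 105 fell and 5 rose. That was 68.2% lower, against 15.7% of all tested contigs and 20.5% of those with a pathway annotation. Their median log2 fold change was -1.48. With a single library left out 1 to 3 rose. Their summed level was 2759.6 ± 199.7 CPM at 14 °C and 5902 ± 1074 CPM in roots not stored. DREB1A (comp66303_c1) was at 0 in all 3 libraries at 14 °C and had 3.6, 17.7 and 2.37 CPM in roots not stored. Against a floor of 3 counts per library that is at least 222-fold lower (edgeR adjusted p = 0.00928). A second DREB1A contig, comp42365_c1, had 0.0318, 0.168 and 0.0275 CPM at 14 °C and 9.96, 21.1 and 4.61 CPM in roots not stored. DREB1D (comp55413_c1, picked after its values were seen) had 2, 3.06 and 2.79 CPM at 14 °C and 277, 503 and 176 CPM in roots not stored, a 122-fold fall (edgeR adjusted p = 3.15e-06). ERF026 (comp54371_c2) had 0.265, 0.335 and 0.317 CPM at 14 °C and 42, 137 and 22.7 CPM in roots not stored. All 6 contigs of ERF109, a factor of the wounding and redox response in Arabidopsis, fell, with a summed 2.27, 2.08 and 2.42 CPM at 14 °C, against 144, 263 and 122 CPM in roots not stored. In each of these genes the second library of roots not stored was the highest, at up to several times the others, so the size of the fall varies with the library while the separation of the groups does not. For the ERF109 contigs comp48947_c1 and comp54831_c9 only 5 and 9 counts stood over the 14 °C libraries, and the ratios of falls, 551 (236 to 1697) and 345 (182 to 756), carry exact 95% binomial intervals for counting error only. RAP2-3 (comp28852_c1) was among the few that rose, with 749.9, 747 and 793 CPM at 14 °C and 612, 522 and 430.4 CPM in roots not stored (edgeR adjusted p = 0.00688). Of all 6 RAP2-3 contigs 1 rose and 4 fell, while their sum was 804 ± 27.8 CPM at 14 °C and 569 ± 97.7 CPM in roots not stored.

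Kinase, calcium and repressor genes of stress signalling fell as well. MPK3, a kinase activated by wounding and pathogens, fell in 16 of 17 contigs and rose in none. Its contig with the highest level, comp40832_c1, had 7.22, 6.73 and 10.2 CPM at 14 °C and 152, 272 and 140.3 CPM in roots not stored, a 23.4-fold fall (edgeR adjusted p = 5.69e-06). All 15 contigs of WRKY33, a substrate of that kinase pathway in Arabidopsis, fell, and they summed to 36.7, 37.1 and 32.4 CPM at 14 °C, against 209.7, 392 and 209.9 CPM in roots not stored. WRKY40, WRKY41 and WRKY53 fell in 7 of 8, 5 of 5 and 4 of 4 contigs. The WRKY family was not uniform, with 32 contigs higher and 79 lower of 267, and without the first or second library of either group 18 to 20 were higher. WRKY19 (comp21763_c3) rose, with 146, 121 and 128 CPM at 14 °C and 72.7, 80 and 76.7 CPM in roots not stored. Of all 80 WRKY19 contigs 12 rose and 7 fell. The zinc finger repressor ZAT10 (comp48977_c3) had 9.49, 10.3 and 11.7 CPM at 14 °C and 199, 287 and 179 CPM in roots not stored, a 21.1-fold fall (edgeR adjusted p = 1.35e-07). ZAT contigs fell in 11 and rose in 1 of 27. CML35 (comp11746_c1), a calmodulin-like calcium sensor, had 42.9, 42 and 44.5 CPM at 14 °C and 91.8, 93 and 75.3 CPM in roots not stored (edgeR adjusted p = 6.94e-05). Its family fell in 34 and rose in 8 of 74, with 4 rises without the second 14 °C library and 5 without the third library of roots not stored. All 5 CML37 contigs fell, and together they had 3.9, 3.97 and 4.36 CPM at 14 °C, against 47.2, 80.2 and 37.2 CPM in roots not stored.

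Jasmonate and ethylene genes fell more often than they rose. The jasmonate and oxylipin list rose in 2 and fell in 10 of 35 contigs, and the ethylene list had 7 rises and 20 falls among 62, or 12 and 13 falls without the first or second 14 °C library. TIFY proteins, the repressors that jasmonate signalling both degrades and induces, fell in 17 and rose in 1 of 25 contigs, with TIFY10B (comp51097_c1) at 27, 24.2 and 31.2 CPM at 14 °C and 42.6, 49.3 and 40 CPM in roots not stored. The lipoxygenase LOX1.5 (comp90607_c1), which oxidises fatty acids to oxylipins, had 159, 146 and 158 CPM at 14 °C and 490.1, 657 and 648 CPM in roots not stored. The groups were separated by a wide gap (log2 fold change -1.96 ± 0.13, edgeR adjusted p = 2.04e-06). Allene oxide synthase, described as hydroperoxide dehydratase, fell in 4 of 6 contigs, while oxophytodienoate reductase changed in none of 7. ACC synthase, which sets the rate of ethylene formation, fell in 11 and rose in 1 of 16, and ACC oxidase, the last step, fell in 9 and rose in 6 of 46. Contigs with the function term response to wounding, a set drawn up after values were seen, fell in 124 and rose in 44 of 269, with a summed level of 4600.5 ± 209.9 CPM at 14 °C and 10109 ± 1488 CPM in roots not stored.

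Other hormone genes showed single strong falls within mixed lists. The gibberellin 2-oxidase GA2OX1 (comp49007_c1), which inactivates gibberellins, had 1.13, 1.43 and 1.62 CPM at 14 °C and 69, 137 and 52.1 CPM in roots not stored, a 61.8-fold fall (edgeR adjusted p = 5.46e-06). The enzyme fell in 6 of 8 contigs, and the synthetic gibberellin 20-oxidase rose in 1 and fell in 2 of 12. NCED1 (comp56932_c1), which cleaves carotenoids in the committed step to abscisic acid, had 104, 114 and 94.3 CPM at 14 °C and 185, 256 and 189.6 CPM in roots not stored (edgeR adjusted p = 0.000955). Of all 5 NCED1 contigs, however, 3 rose and 1 fell, and their sum was 140.3 ± 8.61 CPM at 14 °C and 228 ± 39.7 CPM in roots not stored. The auxin response list rose in 40 and fell in 23 of 132 contigs, with 14 and 15 falls without the first and the second 14 °C library, the cytokinin list in 8 and 16 of 44 (5 rises without the second 14 °C library), and the gibberellin list in 4 and 8 of 25. The abscisic acid list rose in 11 and fell in 19 of 55. Isopentenyltransferase, which makes cytokinins, fell in 4 of 5 contigs, and cytokinin dehydrogenase, which degrades them, fell in 6 and rose in 1 of 12.

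Cell wall remodelling genes fell steeply. The list for wall loosening and pectin degradation fell in 94 and rose in 22 of 191 contigs. Xyloglucan endotransglucosylases, which cut and rejoin the xyloglucan tethers of growing walls, fell in 65 and rose in 12 of 83 contigs, with a median log2 fold change of -4.53, the lowest of the lists with at least 20 tested contigs. All 17 XTH16 contigs fell, and their sum was 23.5, 27.4 and 25.8 CPM at 14 °C, against 546, 1142 and 362 CPM in roots not stored. The second library of roots not stored was again the highest, and even the lowest stood more than 10 times above every 14 °C library. XTH24 fell in 13 of 14 contigs. Against this trend XTH27 (comp12704_c2) rose, with 234, 225 and 241 CPM at 14 °C and 122, 141 and 121 CPM in roots not stored (edgeR adjusted p = 8.78e-05). Expansins, which loosen walls without cutting them, fell in 18 of 31 contigs and rose in none. EXLA2 (comp42639_c8), an expansin-like protein, had 26, 28.3 and 25.7 CPM at 14 °C and 97.2, 191 and 61 CPM in roots not stored. Pectinesterases fell in 22 and rose in 3 of 56. Enzymes that make the UDP-sugars for wall polymers, drawn up as a set after values were seen, fell in 20 and rose in 1 of 39. The rhamnose synthase RHM1 (comp35685_c1) had 127, 129 and 118 CPM at 14 °C and 420.1, 753 and 407 CPM in roots not stored (edgeR adjusted p = 4.95e-05). UGD2 (comp38107_c2), a UDP-glucose dehydrogenase picked after its values were seen, had 26.1, 26.4 and 25 CPM at 14 °C and 198, 426 and 152 CPM in roots not stored, and the epimerase GAE1 (comp28312_c1, likewise picked) had 60.4, 52.7 and 66.7 CPM at 14 °C and 436, 687 and 385 CPM in roots not stored. A second RHM1 contig, comp53654_c1, held 5 counts over the 14 °C libraries, against 26.2, 27.4 and 1.72 CPM in roots not stored, a ratio of 969 with an exact 95% binomial interval of 415 to 2985 for counting error. In it the third library of roots not stored was far below the other two. Cellulose synthases rose in 19 and fell in 21 of 97 contigs.

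Photosynthesis genes were lower after storage. Light-harvesting and photosystem proteins fell in 58 and rose in 1 of 114 contigs, with a summed 608, 591 and 609 CPM at 14 °C, against 2519, 2183 and 1727 CPM in roots not stored. CAB7 (comp54284_c1), a chlorophyll-binding antenna protein, had 5 counts over the 14 °C libraries, against 16.1, 11.6 and 12.9 CPM in roots not stored, a ratio of 694 with an exact 95% binomial interval of 297 to 2139 for counting error. PSBP1 (comp88434_c1), of the oxygen-evolving complex, had 73, 63.3 and 81.4 CPM at 14 °C and 316, 275 and 228 CPM in roots not stored (edgeR adjusted p = 4.09e-06). HEMA1, which begins the synthesis of chlorophyll and heme, fell in all 7 contigs. The labels do not say whether any roots were kept in light. Fatty acid desaturases, which put double bonds into membrane lipids, fell in 20 of 34 contigs and rose in none. The endoplasmic reticulum desaturase FAD2-2 (comp14372_c1) had 474, 485 and 561 CPM at 14 °C and 1126, 931 and 871 CPM in roots not stored (edgeR adjusted p = 0.000189).

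Ribosomal protein genes fell by a modest but widespread amount. Of 921 tested contigs 498 fell and 22 rose, with a median log2 fold change of -0.70 and a summed level of 14985, 15045 and 19533 CPM at 14 °C, against 32982, 28641 and 21874 CPM in roots not stored. The third library of roots not stored stood closest to the 14 °C libraries. RPL3 (comp98987_c1) showed the same order, with 275, 257 and 343 CPM at 14 °C and 495, 441 and 354 CPM in roots not stored (edgeR adjusted p = 0.023). The count of ribosomal contigs that fell was 322 without the first 14 °C library, 325 without the second and 613 without the third library of roots not stored, and 440 with the length trend removed. Of 253 proteasome contigs, for the complex that degrades tagged proteins, 43 rose and 29 fell. That was 17.0% and 11.5%, against 15.1% and 15.7% of all tested contigs and 19.3% and 20.5% of those with a pathway annotation. Scaled by library totals alone, 73 rose and 11 fell. Leaving out a single library gave 21 to 34 rises and 14 to 50 falls, with 14 falls without the first 14 °C library and 50 without the third library of roots not stored. The described contig with the second highest count in roots not stored was TAR1-A (comp76979_c1), a symbol given in yeast to a transcript antisense to ribosomal RNA. It had 9131, 11571 and 12888 CPM at 14 °C and 31976, 43119 and 39816 CPM in roots not stored (edgeR adjusted p = 9.12e-06). How much ribosomal RNA each library held was not tested.

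One contig of viral annotation separated the groups almost completely. The contig comp38403_c1, 10898 bases long and without symbol or description, carries the function terms viral capsid, viral genome replication and RNA-directed RNA polymerase activity, and was picked after its values were seen. It had 3.83, 3.16 and 3.99 CPM at 14 °C and 29.4, 8.28 and 6.61 CPM at 4 °C, against 3154, 2062 and 2481 CPM in roots not stored. All 6 pools of stored roots were thus low and all 3 pools of roots not stored high, and the 14 °C level was 701-fold lower (log2 fold change -9.45 ± 0.70, edgeR adjusted p = 2.34e-05). It was the only tested contig with the term viral capsid. Whether the viral contig has a part in the falls of the defence-related genes above was not tested.

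Further lists changed in both directions, several at shares near the background. Among all tested contigs 15.1% rose and 15.7% fell, and among those with a pathway annotation 19.3% and 20.5%. Citrate cycle enzymes rose in 27 and fell in 20 of 126 contigs (21.4% and 15.9%). Scaled by library totals alone, 44 of them rose and 11 fell. Within them the oxoglutarate dehydrogenase E1 subunit rose in 7 of 10 and malate dehydrogenase fell in 6 of 14. Fermentation enzymes rose in 15 and fell in 13 of 57, phenylpropanoid enzymes rose in 12 and fell in 26 of 109, and flavonoid enzymes rose in 16 and fell in 14 of 79. Glutathione S-transferases, which conjugate toxic compounds, fell in 40 and rose in 9 of 112. The count of falls was 26 without the first 14 °C library, and 5 rose without the second 14 °C library or without the first or second library of roots not stored. Other counts in these lists moved too: without the second library of roots not stored 15 citrate cycle and 9 fermentation contigs rose, and without the first 14 °C library 8 fermentation and 8 flavonoid contigs fell. Without the second 14 °C library 17 citrate cycle contigs rose. The lignin pathway enzyme 4CL1 (comp97572_c1) rose, with 155, 145 and 135 CPM at 14 °C and 86.8, 99.2 and 118 CPM in roots not stored (edgeR adjusted p = 0.0105), and the alcohol dehydrogenase ADH2 (comp38004_c1) fell, with 128, 131 and 143 CPM at 14 °C and 214, 187 and 156 CPM in roots not stored (edgeR adjusted p = 0.0128). NAC factors fell in 38 and rose in 19 of 101, with NAC029 (comp96236_c2) rising to 257, 291 and 257 CPM at 14 °C, against 120.0, 143 and 159 CPM in roots not stored. Of all 5 NAC029 contigs 2 rose and 2 fell. Of 79 aquaporin contigs 27 fell and 15 rose, with the tonoplast type falling in 14 of 27. Chitinases and glucanases rose in 12 and fell in 10 of 48, with 4 rising in the fit of the 6 libraries alone and 6 to 9 with any single library left out. Of 81 contigs for proteases that could act on storage proteins 16 rose and 27 fell. Enzymes of glutamine and asparagine synthesis rose in 12 and fell in 13 of 64.

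**Figure D3:**
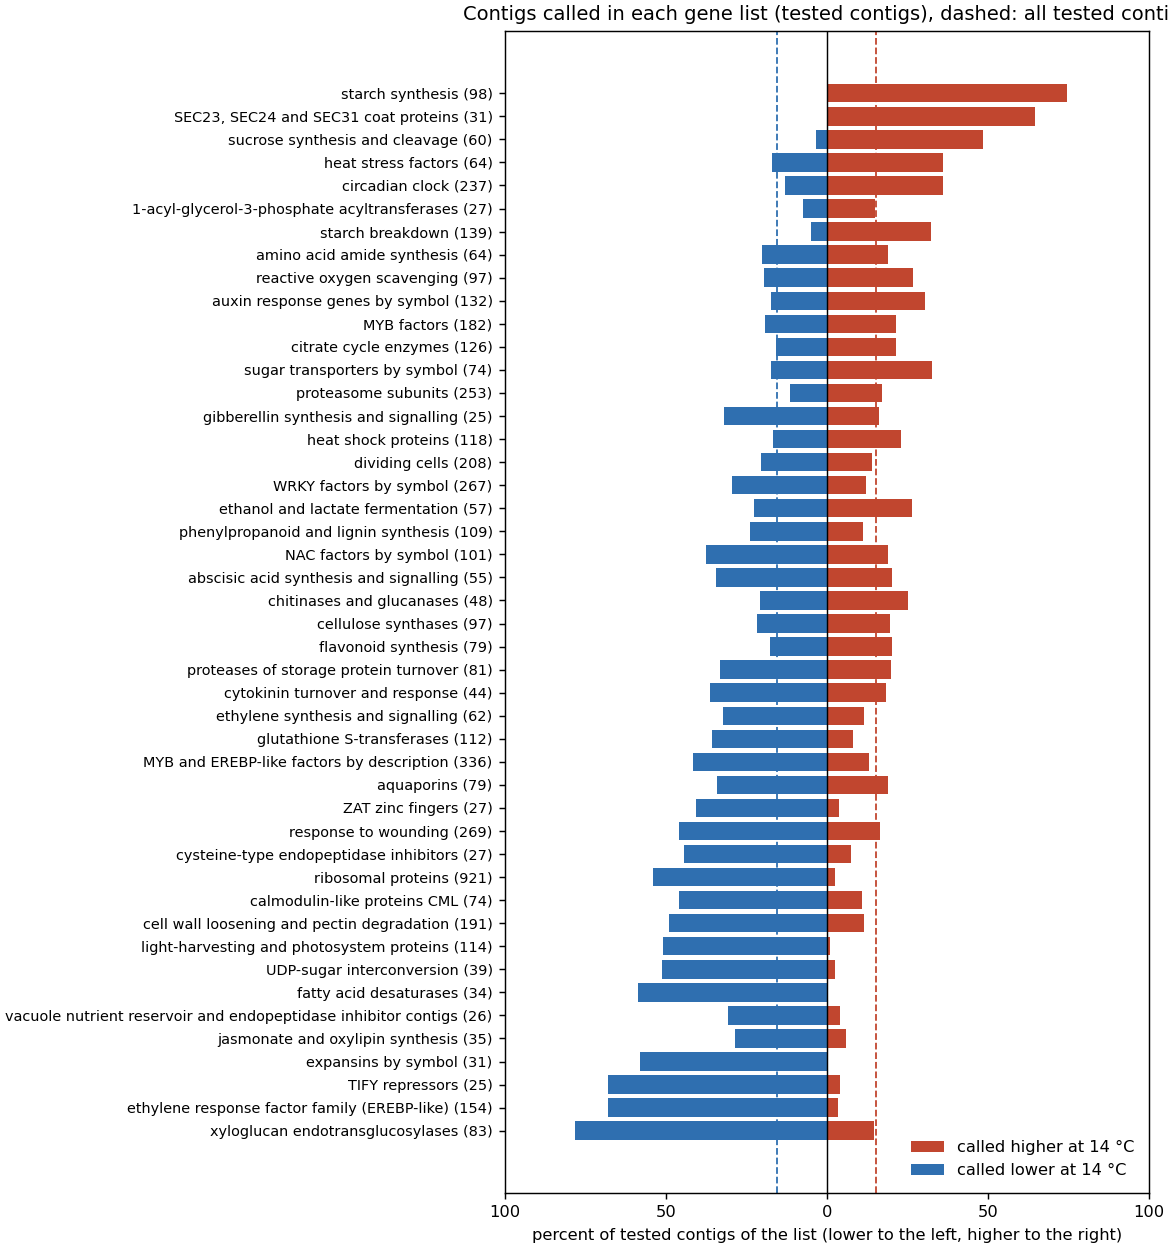
Percent of tested contigs called higher (red, right) and called lower (blue, left) at 14 °C in each gene list of at least 20 tested contigs, ordered by median log2 fold change, with the number tested in brackets and dashed lines at 15.1% and 15.7% for all tested contigs. Starch synthesis reaches 74.5% higher at the top and xyloglucan endotransglucosylases 78.3% lower at the bottom. Among tested contigs with a pathway annotation the shares were 19.3% higher and 20.5% lower.

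Pathway and function terms were read by the share of their contigs called, beside the share among all annotated contigs. No set test was run. Among 12910 tested contigs with a pathway (Kyoto Encyclopedia of Genes and Genomes, KEGG) 19.3% rose and 20.5% fell. Of 217 pathways with at least 20 tested contigs, the highest shares rising were in butirosin and neomycin biosynthesis (15 of 30, here only hexokinase), fly circadian rhythm (31 of 63, here casein kinase 1 and glycogen synthase kinase 3), dichloroethane degradation (12 of 26, here aldehyde dehydrogenase) and ABC transporters (61 of 133). The ABC transporters, pumps that move compounds across membranes, summed to 2936 CPM at 14 °C and 1698 CPM in roots not stored. Hedgehog signalling (mostly the same kinases), non-homologous end-joining of DNA (10 of 23, with 0 lower), novobiocin biosynthesis (aminotransferases) and chloroacrylic acid degradation (aldehyde and alcohol dehydrogenases) completed the first 8. The highest shares falling were in ribosome (498 of 921), photosynthesis (51 of 98), riboflavin metabolism (19 of 39) and antenna proteins (24 of 52). Next came a sodium reabsorption pathway whose members here are mitogen-activated protein kinases (32 of 83), porphyrin and chlorophyll metabolism (42 of 110), phototransduction, here mostly calmodulins (37 of 98), and indole alkaloid biosynthesis (12 of 32).

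Gene Ontology (GO) terms with the highest shares held many of the same gene groups. Among 34461 tested contigs with a GO term 18.6% rose and 19.2% fell, and 989 terms held at least 20. The highest shares rising were in glycogen biosynthetic process (52 of 65), glucose-1-phosphate adenylyltransferase activity (43 of 55), sucrose synthase activity (21 of 28) and starch biosynthetic process (64 of 96). The COPII vesicle coat (20 of 30) and actin filament capping (22 of 34, mostly villins, which bundle and cap actin) followed. Protein hexamerization (13 of 21) and clathrin coated vesicle membrane (22 of 38) came last of 8. The highest shares falling were in camalexin biosynthetic process (31 of 32), whose members here are MPK3 and WRKY33 contigs and not enzymes of that pathway. A pair of terms for stomatal development and patterning again held mostly MPK3 contigs. Xyloglucosyl transferase activity (65 of 82) and cellular glucan metabolic process held the XTH family, and a term for oxidoreductases on paired donors held the desaturases. The cytosolic small ribosomal subunit (79 of 116) and plastid (22 of 33) ended the list. Of the 33 plastid contigs 18 carried the symbol At2g30020, and 13 were described as protein phosphatase.

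Broad functional classes (eukaryotic orthologous groups, KOG) moved less. Among 35142 tested contigs with a class 19.6% rose and 16.5% fell. Translation had the largest excess of falls, with 12.4% higher and 34.2% lower. Nuclear structure, with 30.2% higher and 8.05% lower, and replication and repair, with 27.1% and 8.2%, had the largest excess of rises. Cell wall and membrane biogenesis, the class that holds most ADP-glucose pyrophosphorylase and sucrose synthase contigs, had 26.4% higher and 18.5% lower. Carbohydrate transport and metabolism had 22.1% higher and 20.5% lower.

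**Figure D4:**
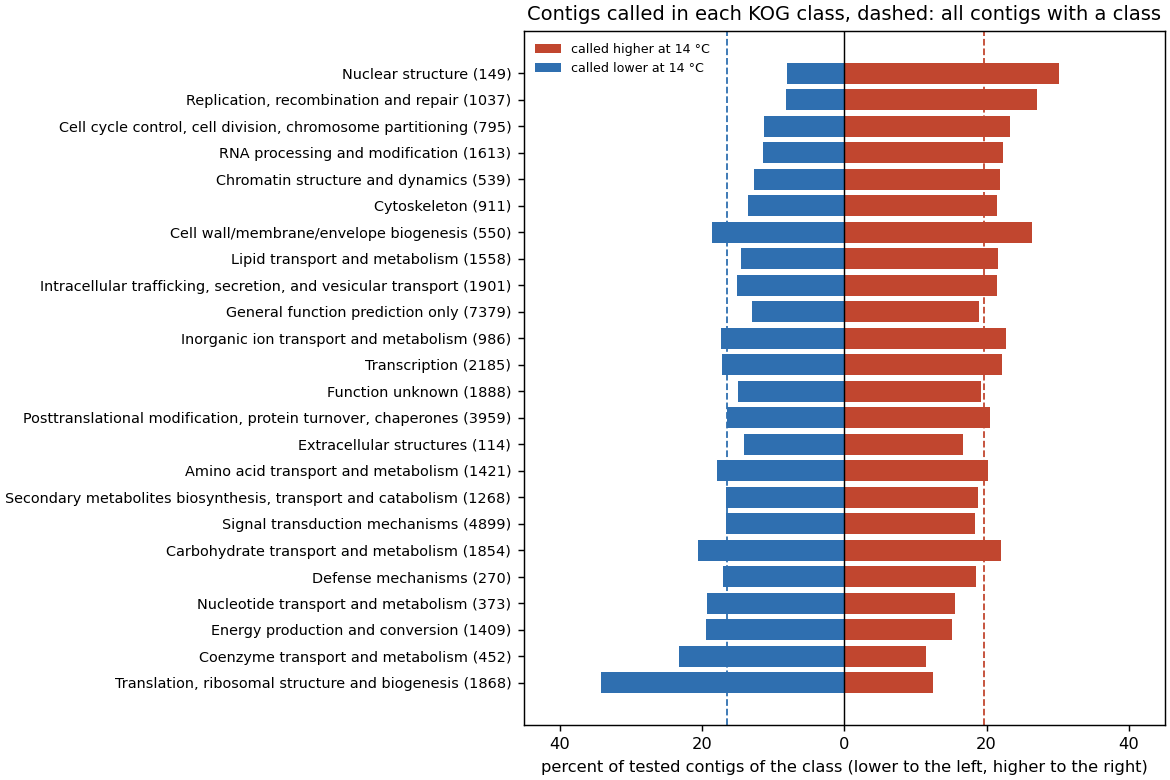
Percent of tested contigs called higher (red, right) and called lower (blue, left) at 14 °C in each of 24 KOG classes, ordered by the difference, with the number tested in brackets and dashed lines at 19.6% and 16.5% for all contigs with a class. Translation stands apart at the bottom with 34.2% lower, and most other classes lie near the dashed lines.

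Calls also varied with contig length. Contigs of at least 1 CPM were divided into 4 length classes of nearly equal size. Of these, 34% of the longest (1702 to 15533 bases) rose and 14.4% fell, whereas 12.3% of the shortest (201 to 658 bases) rose and 24.4% fell. The mean contig length behind a count, without the 100 most abundant contigs, was 2126, 2024 and 1892 bases in the 14 °C libraries and 1682, 1712 and 1897 bases in those of roots not stored. The groups overlapped in the third library of both groups. With a length trend removed from each library, a step added after the values were seen, 15398 contigs rose and 14239 fell. Of the groups above, ribosomal proteins are short (median 530 bases) and phytochromes long (median 3930 bases), while starch synthesis contigs, which rose, are short (median 515 bases) and gave 76 rises and 2 falls with the trend removed.

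**Figure D5:**
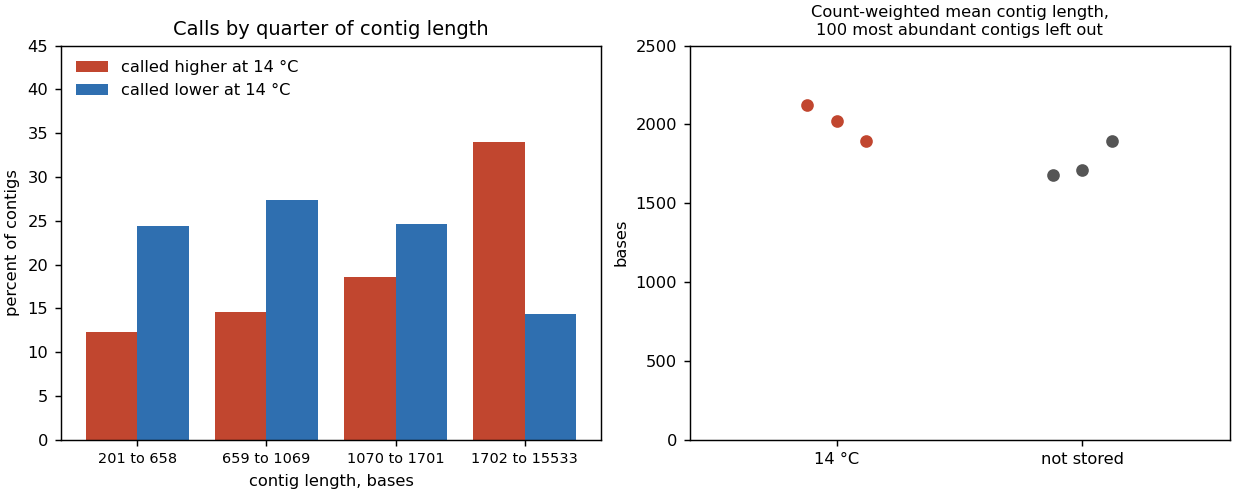
Left, percent of contigs of at least 1 CPM called higher (red) and lower (blue) at 14 °C in each of 4 classes of contig length in bases; right, count-weighted mean contig length per library without the 100 most abundant contigs, 14 °C in red and roots not stored in grey. The share called higher is 12.3% in the shortest class and 34% in the longest, and the right panel shows libraries at 1892 to 2126 bases at 14 °C and 1682 to 1897 bases in roots not stored.

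Levels in roots stored at 4 °C can be set beside these. Between the 4 °C and the 14 °C store 47.8% of tested contigs differed. AGPS1 (comp75210_c1) had 93.8, 93.7 and 42.4 CPM at 4 °C, against 27256, 20952 and 21560.2 CPM at 14 °C (log2 difference -8.25, edgeR adjusted p = 3.49e-08). Sucrose synthase (comp63836_c2) had 844, 849 and 1052 CPM at 4 °C (edgeR adjusted p = 1.15e-05 against 14 °C). The starch synthesis list and the GSPO contigs had summed levels of 586 and 156 CPM at 4 °C, against 31725 and 29760.0 CPM at 14 °C. APRR5 (comp80461_c5) stood at 30.8, 34 and 30.6 CPM at 4 °C (edgeR adjusted p = 1.95e-06 against 14 °C), and MYB48 (comp78556_c2) at 16.3, 10.9 and 20.3 CPM (edgeR adjusted p = 1e-07). For DREB1D and ERF026 both stores were low. DREB1D (comp55413_c1) had 1.31, 1.31 and 1.33 CPM at 4 °C, and ERF026 (comp54371_c2) had 0.199, 0.361 and 0.0508 CPM. Some other stress genes were not low at 4 °C. The WRKY33 contigs summed to 279.7 CPM at 4 °C, against 35.4 CPM at 14 °C and 270.7 CPM in roots not stored. The TIFY contigs summed to 415 CPM at 4 °C, against 163 CPM at 14 °C and 412 CPM in roots not stored. LOX1.5 (comp90607_c1), lower at 14 °C, had 575, 674 and 647 CPM at 4 °C (edgeR adjusted p = 1.78e-07 against 14 °C). ZAT10 (comp48977_c3) lay at 37.6, 38.6 and 37.9 CPM at 4 °C, above the 14 °C libraries (edgeR adjusted p = 2.47e-06).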

How the data were processed

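RNA from 9 pools of storage roots was sequenced, with 3 pools each for the 14 °C store, the 4 °C store and roots not stored. The authors deposited, per the file headers, estimated counts, TPM and RPKM for each library over assembled contigs with their length, symbol, description, KEGG, GO and KOG annotation, and RPKM was not used. Per the submitters' processing notes, cutadapt 1.9, HISAT2 2.0.4 and StringTie 1.3.4d were among the tools, with DESeq2 and edgeR. No label or header names the counting tool or the assembly.

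The deposited estimated counts were rounded and analysed in R 4.3.3 with edgeR 4.0.16 (filterByExpr, TMM factors, robust quasi-likelihood fit over all 9 libraries, contrast of the 14 °C store minus roots not stored, Benjamini-Hochberg adjustment, threshold 0.05). CPM are counts over TMM-scaled library sizes. Group means carry SD and fold changes SE. The filter left 94802 of 110110 contigs, and 411 contigs had no count in any library after rounding. A level of 0 was set at 3 counts per library, which corresponds to 0.0318 to 0.0413 CPM in the 6 libraries, and intervals cover counting error only. The script was tested on simulated counts with known changes. Alternatives also used limma 3.58.1 and DESeq2 1.42.0.

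Named contigs are the 8 largest rises and falls with a description, at least 5 CPM and no overlap. From each list the most abundant contig that was called and whose groups did not overlap was named. Where a list had none, its most abundant tested contig was named. The 5 most abundant described contigs of each group were named too. For contigs named by the rules that required no overlap, separation of the groups is therefore part of the choice. Exceptions are marked in the text, and genes given by summed levels were picked after their values were seen. The sporamin contigs were all named. The lists and members were chosen with earlier results of these data known, and 25 of the 56 lists were added after values were seen. The list for cutin, suberin and wax matched only an acyltransferase, with 4 contigs higher and 2 lower of 27. Replicate numbers of the 2 groups do not pair the samples. No contig identifier matched the reference gene table, and no sequence is printed.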

Additional observations from a re-analysis of the deposited data

How the results depend on the processing

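As reported, 14335 contigs were higher and 14915 lower at 14 °C. Library totals alone gave 21986 higher and 10372 lower, a change of at least 2-fold 8672 and 9432, and counts summed by gene symbol 2447 (24.8%) and 2673 (27.1%) of 9853 symbols. Leaving out 1 library at a time gave 9814 to 14888 higher and 10771 to 17768 lower. Other settings gave 13418 and 15614 (DESeq2 size factors), 13647 and 15620 (100 most abundant contigs removed), 13175 and 15796 (no filter), 11342 and 12155 (stricter filter), 12668 and 13805 (6 libraries alone), 15706 and 15468 (limma-voom), 14577 and 16947 (DESeq2) and 15398 and 14239 (length trend removed, added after seeing the data). A fit with the replicate number as a block gave 11898 and 12663. The numbers share no batch in the labels, and same-numbered libraries deviated from their group means with correlations of -0.29, -0.004 and -0.449.

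Among the named contigs that passed the test, the only change of sign was PHYA (comp31065_c1), at -0.10 with the length trend removed. The starch phosphorylase comp38284_c1, which did not pass, was then at -0.32. Scaling by library totals turned the medians of the WRKY, NAC, abscisic acid, cellulose synthase, fermentation, phenylpropanoid, dividing cell, gibberellin and heat shock lists from just below 0 to just above it, so no direction is given for those lists. Under that scaling the rises and falls were 73 and 11 for proteasome subunits, 44 and 11 for citrate cycle enzymes, 50 and 28 for dividing cells and 55 and 65 for WRKY factors. The rises were 22 for amide synthesis, 40 for reactive oxygen scavenging, 18 for abscisic acid, 29 for NAC, 44 for ribosomal proteins and 10 for EREBP-like factors, and the falls 18 for the clock, 14 for auxin, 7 for fermentation, 11 for heat shock proteins and 4 for starch breakdown. With 3 libraries a group, small changes in low contigs are hard to detect. The cause of each shift was not tested.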
